A study of Macaca nemestrina with 58 samples.

Results

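OLFM1, TFF3, CA12, GREB1, XBP1 and IGFBP4 are genes known to respond to estrogen, and their transcripts were followed here through the menstrual cycle and under hormonal contraceptives in the vagina of pig-tailed macaques. Members were the probe sets whose only gene symbol in the array annotation is one of 7 named genes. By that rule 6 genes were found, with 10 probe sets of 52865 on the array: CA12 had 4, XBP1 had 2 and the others had 1 each. STC2 matched no probe set and was not analysed here. All 10 probe sets passed a filter on dim signals that kept 31624 probe sets, TFF3 only narrowly, with a mean log2 signal of 5.69 against a limit of 5.53.

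The data are 58 arrays of vaginal pinch biopsies from 15 animals. The 9 DMPA animals received depot medroxyprogesterone acetate, an injected progestin without estrogen, at doses labelled 0.5, 1.5 and 2.5 with no unit. Biopsies marked 1D4 number 8, and those marked 2D2 number 9. The 6 LNG animals, 3 labelled High and 3 labelled Low, form the arm that the series design calls COC, a combined contraceptive in which an estrogen accompanies a progestin (LNG is the usual short form of levonorgestrel). Their biopsies are marked 5th (6 samples) and 7th (6 samples). A further mark, A-, which the labels do not explain, is on 5 of these 12 arrays, most of them at the 7th time. The design names 2 weeks past the second DMPA injection and 5 weeks from the first COC dose as sampling times, which fit the marks 2D2 and 5th, and it does not explain the marks 1D4 and 7th. Before treatment the same animals gave 28 untreated samples, 5 of them late follicular, 10 early follicular, 4 early luteal and 9 late luteal. Of the animals, 13 gave 2 such samples and 2 gave 1. Since every animal was treated by then, effects of the drug cannot be told apart from those of time or of sampling the same site again. The array carries probes for the rhesus macaque, so transcripts of a related species were measured.

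Estrogen enters a cell, binds estrogen receptor alpha (the product of ESR1), and the receptor then binds DNA near its target genes and changes their transcription. The members are best known as such targets from human breast cancer cells, and in other tissues many of them also answer to other signals. Estradiol peaks in the late follicular phase, when the vaginal epithelium thickens, and progesterone dominates the luteal phase. A progestin given alone suppresses the ovarian cycle without replacing estrogen.

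The members have different jobs. OLFM1 encodes olfactomedin 1, a secreted glycoprotein. TFF3 encodes a trefoil peptide, secreted with mucus. CA12 encodes a carbonic anhydrase of the cell surface, which handles acid and bicarbonate. GREB1 encodes a partner of the estrogen receptor in human breast cancer cells. XBP1 encodes a transcription factor of the unfolded protein response, and IGFBP4 encodes a secreted protein that binds insulin-like growth factors.

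The members did not vary alike over the 57 samples left after 2 arrays of the same animal and phase were averaged. The SD over samples was 1.06 for IGFBP4, 0.76 for OLFM1 and 0.64 for GREB1 on the log2 scale, against a median of 0.36 over all kept probe sets. TFF3 had 0.40 and the CA12 probe sets had 0.40 to 0.54. The XBP1 probe sets were the steadiest, with 0.26 and 0.24.

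The first comparison asks whether these genes stood higher in the late follicular phase than in the other phases of the untreated cycle. None of the 10 probe sets passed the test, and neither did any other: 0% of the 31624 probe sets were called at an adjusted p under 0.05 in limma, although 4017 had an unadjusted p under 0.05. Of the members, 1 had an unadjusted p under 0.05, and that was OLFM1. The median late follicular difference was -0.01 over the 10 members and 0.03 over all kept probe sets. Only 4 animals had both a late follicular and another untreated biopsy, and with the animal as a block the late follicular values enter the test through them.

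OLFM1 had its highest mean in the late follicular phase. The log2 signal was 8.09, 8.35, 8.43, 8.60 and 9.15 in the 5 late follicular samples. In the 10 early follicular samples it ran from 7.34 to 8.95 with a median of 8.05, and in the 9 late luteal samples from 7.23 to 8.72 with a median of 7.80. The 4 early luteal samples had 7.49, 7.50, 8.20 and 8.75. The phases overlapped, with 1 late follicular sample above all 23 samples of the other phases. Within animals, however, the late follicular sample was the higher one in 4 of 4, by 0.31, 0.40, 0.75 and 1.65.

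The fitted late follicular difference of OLFM1 was 0.77 ± 0.30 (SE, 4 animals; 95% interval 0.13 to 1.41), with an adjusted p of 0.314 in limma. Without animal BB4800 it was 0.42 ± 0.34. An array labelled as a duplicate shows how much a repeat can move this probe set: it read 7.92, against 9.28 in its partner of the same animal and phase. Their mean is the sample at 8.60, whose animal had no other untreated biopsy.

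TFF3 was also higher in the late follicular sample in 4 of 4 animals, by 0.01, 0.04, 0.14 and 0.56. Its log2 signal was 5.73, 5.96, 6.09, 6.34 and 6.54 in the late follicular samples, against a range of 5.13 to 6.33 with a median of 5.82 in the 23 samples of other phases. The top of the late follicular range lay above the others, and the rest of it lay among them. The difference was 0.18 ± 0.14 (SE; adjusted p = 0.591 in limma).

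XBP1 went the other way in each of the 4 animals. Its brighter probe set was lower in the late follicular sample by 0.14, 0.17, 0.42 and 0.46, and the other by 0.03, 0.09, 0.17 and 0.30. The late follicular values of the brighter probe set were 10.18, 10.40, 10.41, 10.50 and 10.61, against 10.33 to 11.14 with a median of 10.71 in the other phases. The difference of -0.26 ± 0.14 (SE) had an adjusted p of 0.449 in limma. For the brighter probe set the duplicate array read 10.69 and its partner 10.31.

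IGFBP4 was widely spread, except that the late luteal samples other than that of BB4870 (8.29) lay between 10.88 and 11.54. IGFBP4 read 8.004, 9.28, 9.61, 10.52 and 10.76 in the late follicular samples, and 7.88 to 11.54 with a median of 10.88 in the others. The late follicular sample was lower by 3.24 and 1.60 in the 2 animals whose other sample was late luteal, and higher by 0.13 and 0.05 in the 2 whose other sample was early luteal or early follicular. The fit gave -1.004 ± 0.65 (SE; adjusted p = 0.520 in limma). For IGFBP4 the duplicate array read 8.71 and its partner 10.51.

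CA12 and GREB1 showed no common direction. The late follicular differences of the 4 CA12 probe sets lay between -0.10 and 0.07, with standard errors of 0.19 to 0.25. GREB1 had 9.22, 9.40, 9.995, 10.24 and 10.24 in the late follicular samples, all within the range of 8.74 to 11.04 in the other phases. Its difference was 0.22 ± 0.38 (SE; 95% interval -0.60 to 1.03), so a shift of either sign is within the interval.

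**Figure D1:**
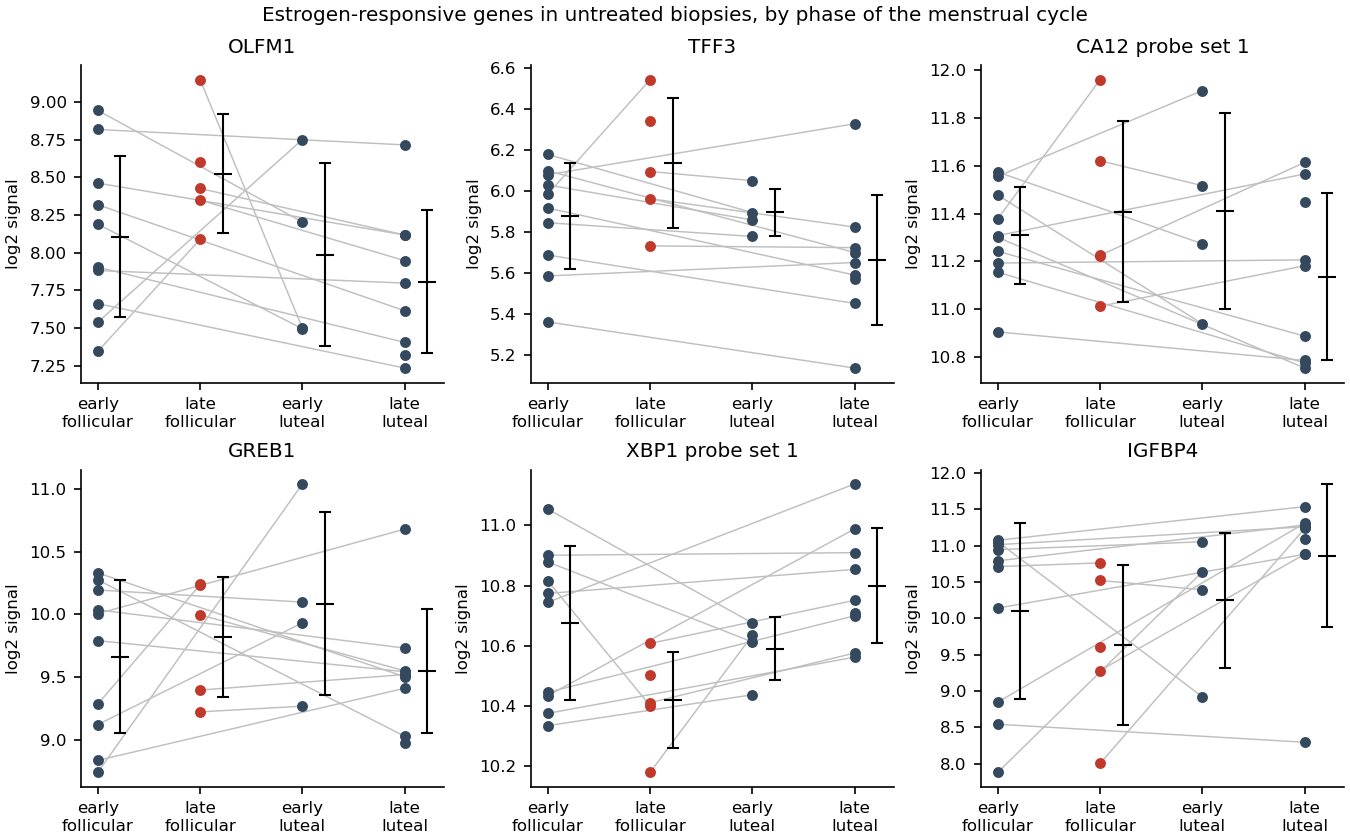
Log2 signal (vertical axes) of 1 probe set of each member in the untreated samples, by cycle phase (horizontal axes). Points are samples (late follicular in red), grey lines join samples of 1 animal, and bars give the mean and SD of a phase. The late follicular mean of OLFM1 is the highest of its 4 phase means at 8.52 ± 0.40, and the groups overlap in each panel.

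Set against single phases, the late follicular phase gave calls against the late luteal phase alone. There 3.26% of all probe sets were called (228 higher and 804 lower in the late follicular phase), and none of the 10 members were among them. An unadjusted p under 0.05 was reached by 3 of the 10 members and by 21.7% of all probe sets. Without animal BB269, BB770 or PHQ1 no probe set was called. OLFM1 had a late follicular minus late luteal difference of 0.80 ± 0.32 (SE; adjusted p = 0.173 in limma), IGFBP4 one of -1.65 ± 0.70 (adjusted p = 0.196) and the brighter XBP1 probe set one of -0.40 ± 0.15 (adjusted p = 0.159). With the animal as a random block, which also uses differences between animals, OLFM1 at 0.76 and this XBP1 probe set at -0.38 passed, when 13.8% of all probe sets did. Against the early follicular and the early luteal phase, 0% of all probe sets and no member passed in limma, while 2262 and 2852 probe sets reached an unadjusted p under 0.05.

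IGFBP4 moved with the stromal markers in this comparison. The 8 measured fibroblast markers averaged 9.37 ± 1.04 (SD, n = 5) on the log2 scale in late follicular and 11.13 ± 1.08 (SD, n = 9) in late luteal samples, and 2 of the 8 were lower in the late follicular phase in the test. In a biopsy of mixed tissue, fewer cells of a type and less RNA per cell cannot be told apart. The part of stroma in the IGFBP4 difference was not tested.

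The receptor genes gave no late follicular difference that passed either. PGR, which encodes the progesterone receptor and is itself an estrogen target, had -0.17 ± 0.44 (SE) against the other phases, and ESR1 had -0.03 ± 0.23.

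The second comparison sets the untreated samples aside as the baseline and asks what followed DMPA. At 2D2, 5 of the 10 probe sets were called lower and none higher: OLFM1, TFF3 and 3 of 4 for CA12, which makes 3 of 6 genes. Of all kept probe sets, 28.1% were called in either direction and 12.1% were called lower. All 10 member changes were negative, as were 44.2% of all, and the member median was -0.40 against 0.04. The members were chosen with earlier results of these data known. Their contrast with all probe sets, here and in the later comparisons, is therefore a description and not a test. Since the CA12 probe sets read 1 transcript and correlated at 0.88 to 0.95, they are not separate observations.

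OLFM1 was below baseline in every DMPA animal at 2D2, and its fall passed the test. Its log2 signal at that time ran from 5.44 to 8.24 with a median of 7.27 in 9 samples, against 7.32 to 8.95 with a median of 8.09 in the 17 baseline samples of these animals. Of the 9 treated samples, 5 lay below the whole baseline range. The change from an animal's own baseline ran from -2.26 to -0.23. The fit gave -1.04 ± 0.24 (SE), a 2.05-fold fall, with an adjusted p of 0.00192 in limma.

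The fall of OLFM1 was unequal between animals and not ordered by dose. The samples at 2D2 had 7.61, 7.72 and 7.82 at dose 0.5, then 5.44, 6.46 and 6.93 at dose 1.5, and 5.45, 7.27 and 8.24 at dose 2.5. The 3 samples of the lowest dose were nearly equal, while those of the highest spanned almost the whole range. A test between the doses was not run.

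At 1D4 OLFM1 was already lower, at 6.03 to 7.75 with a median of 7.45 in 8 samples. The change was -0.77 ± 0.25 (SE; adjusted p = 0.0257 in limma), negative in 7 of 8 animals. It did not pass without animal BB0540 (adjusted p = 0.0716), BB405 (0.103) or BB981 (0.113).

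TFF3 fell at both DMPA times. It ran from 4.94 to 5.92 with a median of 5.19 at 1D4 and from 4.72 to 5.89 with a median of 5.34 at 2D2, against 5.13 to 6.54 with a median of 5.72 in the baseline samples of the same animals. The ranges overlapped, with 2 of 8 and 2 of 9 treated samples below the baseline range. The change was -0.49 ± 0.11 (SE; adjusted p = 0.00548 in limma) at 1D4 and -0.39 ± 0.11 (adjusted p = 0.00770) at 2D2. These falls were seen in 7 of 8 and 8 of 9 animals, in a probe set close to the dim limit.

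CA12 fell at 2D2. Its dimmest probe set had 7.45 to 9.56 with a median of 8.60, against 8.71 to 10.31 with a median of 9.41 in the baseline samples of these animals, and 5 of 9 treated samples lay below that range. Its change was -0.67 ± 0.17 (SE; adjusted p = 0.00487 in limma), negative in 8 of 9 animals. The 2 brightest probe sets had -0.42 ± 0.13 (adjusted p = 0.0183) and -0.41 ± 0.14 (adjusted p = 0.0257), and the remaining one -0.32 ± 0.13, which did not pass (adjusted p = 0.0643).

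The CA12 calls differed in how far they depended on single animals. Without BB0540, 3 members were called lower in all, and the brightest 2 CA12 probe sets had -0.32 and -0.30 with adjusted p of 0.0817 and 0.121, while the dimmest kept its call at -0.52, as it did when each of the 15 animals was left out. The second brightest also lost its call without BB0499 or BB108. At 1D4 none of the 4 CA12 probe sets passed, with changes from -0.31 to -0.12.

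GREB1 came close to the threshold at 2D2. It ran from 7.65 to 10.71 with a median of 9.13, against 8.74 to 11.04 with a median of 9.55 at baseline, and 3 of 9 treated samples lay below the baseline range. The change of -0.58 ± 0.23 (SE), negative in 8 of 9 animals, had an adjusted p of 0.0535 in limma. At 1D4 it was -0.27 ± 0.24. The 2D2 change was largest in animal BB0540, at -2.69. With each animal left out in turn, the fitted 2D2 change lay between -0.76 and -0.31 and passed in 2 of 15 fits.

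XBP1 and IGFBP4 were not called after DMPA. The XBP1 probe sets had changes of -0.12 ± 0.09 and -0.21 ± 0.09 (SE) at 2D2. IGFBP4 had 9.51 to 11.90 with a median of 11.44 at 1D4 and 9.30 to 12.06 with a median of 10.05 at 2D2, against 7.88 to 11.54 with a median of 10.88 at baseline. It was higher than baseline in 7 of 8 animals at 1D4 (0.68 ± 0.36, SE; adjusted p = 0.163 in limma) and in 5 of 9 at 2D2 (-0.15 ± 0.35).

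At 1D4 as a whole, 2 of 10 members were called lower and none higher, against 23.2% of all probe sets called and 11.9% called lower. PGR had -0.17 ± 0.29 (SE) at 1D4 and fell by 0.92 ± 0.28 (adjusted p = 0.0127 in limma) at 2D2. The 2D2 fall was unequal: changes ran from -2.46 to 0.41 with a median of -0.45. They were negative in 7 of 9 animals, among them BB0499 at -0.01. ESR1 had -0.24 ± 0.15 and did not pass.

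**Figure D2:**
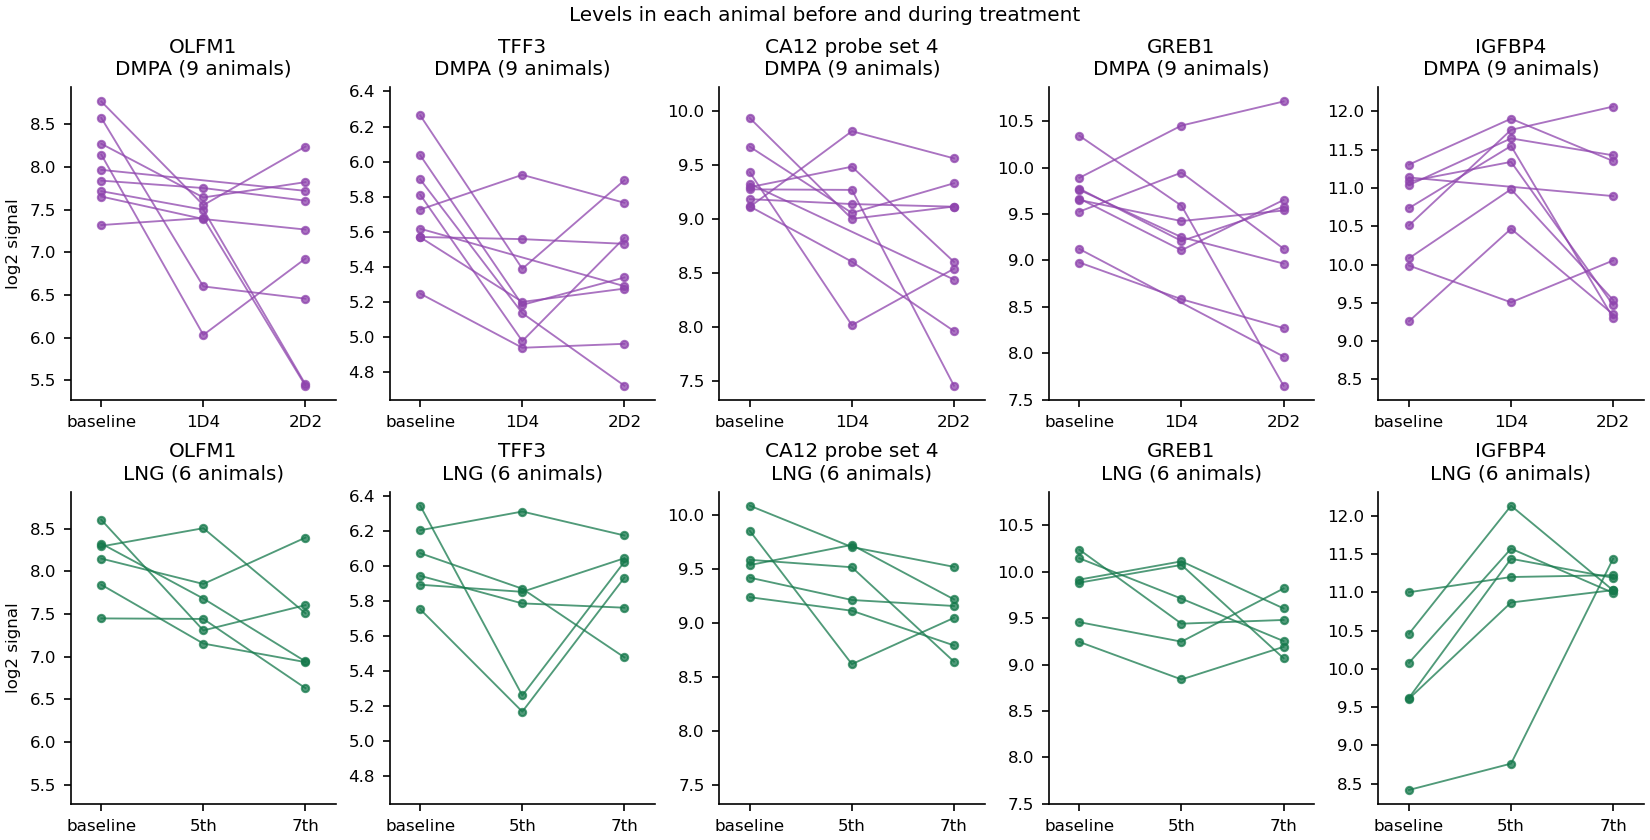
Log2 signal (vertical axes) of 5 probe sets in each animal at baseline (mean of its untreated samples) and at the treated times (horizontal axes), for DMPA above and LNG below; each line is 1 animal. OLFM1 ends below baseline in 9 of 9 DMPA animals at 2D2, and IGFBP4 lies above baseline in 6 of 6 LNG animals at both times.

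RNA quality and tissue makeup moved with these changes. GAPDH control probe sets at the 3' and 5' ends of the transcript differ more as RNA degrades, and that difference was 2.43 ± 0.70 (SD, n = 9) at 2D2 against 1.66 ± 0.31 (n = 28) at baseline, with 8 of 9 animals above their baseline. Because this difference rose along with treatment, a fit that includes it cannot tell RNA quality apart from the drug. With the difference as a covariate, 0 of 31624 probe sets passed at 2D2 in limma, while 2802 reached an unadjusted p under 0.05. OLFM1 then had -0.91 ± 0.30 (SE), TFF3 had -0.15 ± 0.13, and the 4 CA12 probe sets lay between -0.04 and 0.03. At 1D4 the covariate left TFF3 called at -0.40 (adjusted p = 0.0312) and OLFM1 not called at -0.72 (adjusted p = 0.0880). The 2D2 sample with the largest GAPDH difference, 3.98 in animal BB0540, also had the lowest 2D2 signals of the dimmest CA12 probe set and of GREB1, and the highest of OLFM1. The next largest differences did not go with a common level. BB0499, at 2.74, read 7.96 for that CA12 probe set and 9.54 for GREB1. PPi2, at 2.67, read 9.56, the highest 2D2 signal of that probe set, and 9.65 for GREB1. The part of RNA quality in the member changes was not tested.

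Of 14 measured superficial squamous markers, 13 fell at 2D2, and their mean was 8.15 ± 2.15 (SD, n = 9) against 12.34 ± 1.19 (n = 17) in the baseline of the same animals. Of 10 columnar markers 8 rose and of 5 proliferation markers 5 fell, while 0 of 8 fibroblast markers were called. At 1D4, 12 of the 14 squamous markers and 5 of the 5 proliferation markers fell, and 6 of the 10 columnar markers rose. The fibroblast mean was above baseline in 7 of 8 animals at 1D4, by 1.17 on average, with 0 of 8 markers called. The part of these shifts in the changes of OLFM1, TFF3, CA12 and IGFBP4 was not tested.

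After LNG no member passed. At the 5th time 0% of all probe sets were called in limma (6828 had an unadjusted p under 0.05), and at the 7th time 0.00632% were, none of them members. The member median was -0.21 at the 5th time and -0.36 at the 7th, against -0.02 and -0.01 over all kept probe sets.

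IGFBP4 gave the largest change of any member after LNG, and it was positive. It read 8.76 to 12.13 with a median of 11.32 at the 5th time and 10.99 to 11.44 with a median of 11.11 at the 7th, against 8.004 to 11.31 with a median of 10.39 in 11 baseline samples of these animals. All 6 animals were above their baseline at both times, by 0.20 to 1.82 at the 5th and by 0.22 to 3.02 at the 7th. The rise of 3.02 was in BB4870, whose array is marked A- and whose baseline samples were low, at 8.29 and 8.54. The fitted change was 1.12 ± 0.43 (SE; adjusted p = 0.118 in limma) at the 5th time and 1.28 ± 0.43 (adjusted p = 0.0864) at the 7th. With each animal left out in turn, the 7th-time change lay between 0.92 and 1.50. The fibroblast marker mean was higher as well, by 1.62 ± 1.19 (SD) in 5 of 6 animals at the 5th time and by 1.73 ± 1.31 in 6 of 6 at the 7th. The part of stroma in the IGFBP4 change was not tested.

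CA12 had negative changes in 6 of 6 LNG animals at the 7th time. The 4 fitted changes lay between -0.57 and -0.34, with adjusted p from 0.112 to 0.207 in limma. In the same samples the GAPDH difference, which grows as RNA degrades, was above baseline in 6 of 6 animals, by 0.47 on average. The squamous marker mean was below it in 6 of 6, by -2.75 on average, and so was the proliferation mean. With the GAPDH difference as a covariate the CA12 changes lay between -0.21 and -0.06. OLFM1 had 7.15 to 8.50 with a median of 7.56 at the 5th time and 6.63 to 8.39 with a median of 7.23 at the 7th, against 7.23 to 9.15 with a median of 8.12 at baseline. Its changes were -0.42 ± 0.29 (SE) and -0.74 ± 0.29 (adjusted p = 0.414 and 0.123), negative in 5 of 6 animals at each time. TFF3 had -0.30 ± 0.13 and -0.10 ± 0.13, and GREB1 -0.22 ± 0.28 and -0.38 ± 0.28. The XBP1 changes lay between -0.11 and -0.05. PGR had 0.02 ± 0.34 at the 5th time and 0.32 ± 0.34 at the 7th.

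The third comparison asks whether the response to a progestin alone differed from that to a progestin with estrogen. The arms also differ in progestin, dosing, animals and sampling time, so an effect of estrogen cannot be told apart from these. The change after DMPA at 2D2 was set against the change after LNG at the 5th time, each from the animals' own baseline. These baselines pool phases of the cycle, in a mix that differed between the arms. The difference was not called for any member or any other probe set (0% of 31624 in limma, while 2688 reached an unadjusted p under 0.05). All 10 member differences were negative, meaning lower after DMPA, and 42.4% of all probe sets had a negative difference. Several of the 10 probe sets read the same gene, so they are not separate observations. In some alternative fits the sign changed for TFF3, the brighter XBP1 probe set and some CA12 probe sets. The member median was -0.20 against 0.04 over all.

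The intervals are wide for the most variable members. OLFM1 had a DMPA minus LNG difference of -0.61 ± 0.38 (SE; 95% interval -1.37 to 0.14; adjusted p = 0.659 in limma). IGFBP4 had -1.28 ± 0.55 (95% interval -2.38 to -0.17; adjusted p = 0.535), and it was the 1 member with an unadjusted p under 0.05. The fibroblast markers had a median DMPA minus LNG difference of -1.81, with 0 of 8 called, and their part in the IGFBP4 value was not tested. Without the animal block IGFBP4 had -0.61. GREB1 had -0.36 ± 0.36 (95% interval -1.10 to 0.37).

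The steadier members bound the difference more closely. TFF3 had -0.09 ± 0.17 (95% interval -0.44 to 0.25), and the XBP1 probe sets had -0.06 (95% interval -0.36 to 0.24) and -0.16 (95% interval -0.46 to 0.13). The CA12 probe sets lay between -0.35 (95% interval -0.90 to 0.20) and -0.11 (95% interval -0.54 to 0.32). PGR had -0.94 ± 0.44 (adjusted p = 0.560). The test did not separate the arms, and differences of the size of the DMPA falls themselves lie within the OLFM1, TFF3 and CA12 intervals.

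With both times of each arm averaged, 0% of all probe sets passed again in limma, and 2029 had an unadjusted p under 0.05. OLFM1 had -0.32 ± 0.31 (SE), TFF3 -0.24 ± 0.14, IGFBP4 -0.94 ± 0.46, and the CA12 probe sets -0.05 to 0.06. Without the animal block, a fit that sets the treated samples of the arms against each other and not against their own baseline, TFF3 passed at -0.48 (adjusted p = 0.0161 in limma), as did 7.74% of all probe sets. TFF3 was lower in the baseline of the DMPA animals, at 5.76 ± 0.33 (SD, n = 17), than in that of the LNG animals, at 6.01 ± 0.22 (SD, n = 11).

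**Figure D3:**
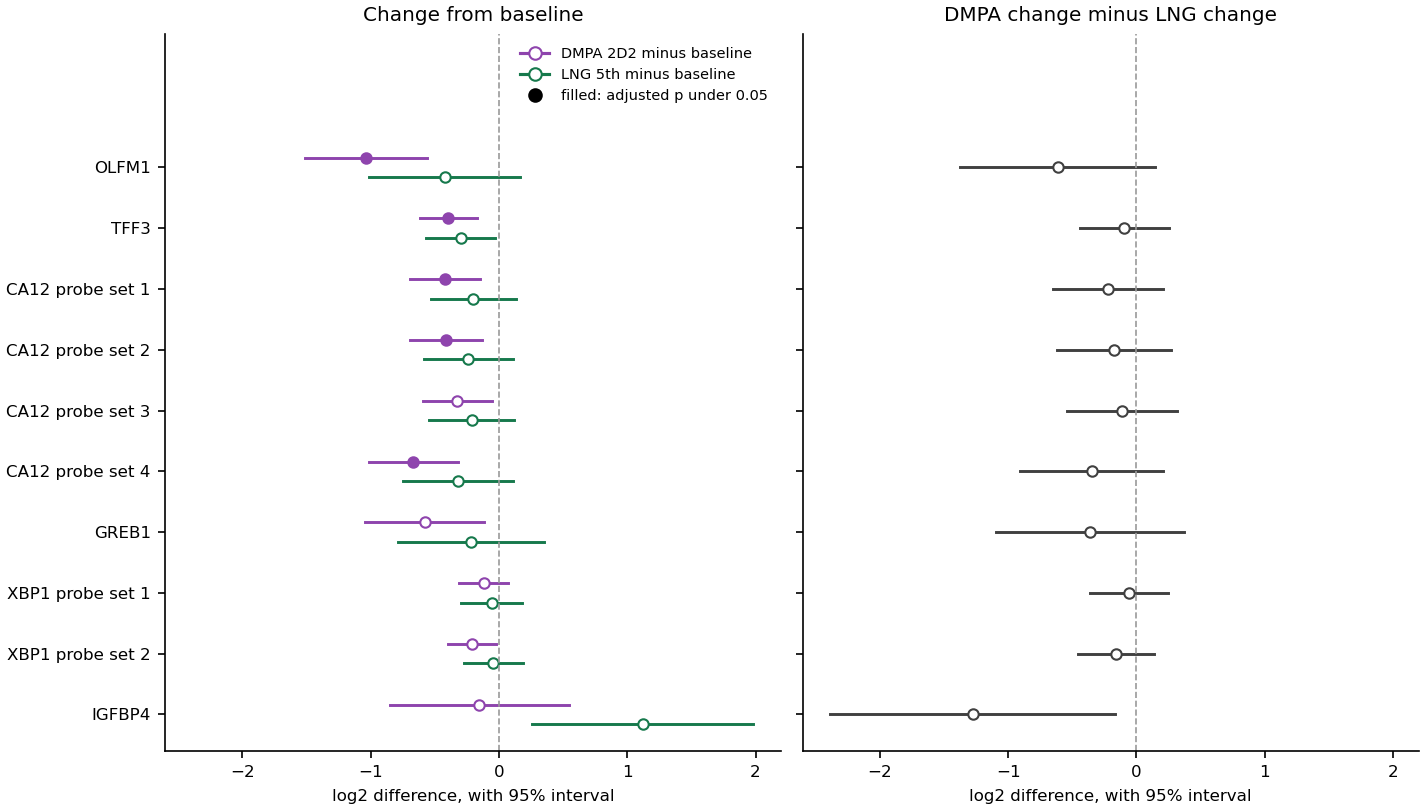
Left: fitted log2 change from baseline of the 10 probe sets after DMPA at 2D2 (purple, upper of each pair) and after LNG at the 5th time (green, lower), with 95% intervals; filled points passed at an adjusted p under 0.05. Right: DMPA change minus LNG change. The 5 filled points are the DMPA falls of OLFM1, TFF3 and 3 CA12 probe sets, and no difference between the arms passed.

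Across phases and treatments the order of the OLFM1 means was late follicular 8.52, early follicular 8.11, early luteal 7.99, late luteal 7.81, LNG 5th 7.66, LNG 7th 7.34, DMPA 1D4 7.23 and DMPA 2D2 6.99. Neighbours in this order were apart by 0.10 to 0.42, and each group's SD was 0.40 to 1.02, so that only the first gap, 0.42 between late and early follicular, was as large as the SD of one of its groups. For IGFBP4 the order was LNG 7th 11.15, DMPA 1D4 11.15, LNG 5th 10.99, late luteal 10.86, DMPA 2D2 10.38, early luteal 10.25, early follicular 10.10 and late follicular 9.64. The gaps were at most 0.48, and the SDs were 0.81 to 1.21 except for the LNG 7th samples, which had 0.17.

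Over the 57 samples, which share animals and treatments, the members did not form 1 block. OLFM1 and TFF3 correlated at r = 0.37, GREB1 and the CA12 probe sets at 0.40 to 0.48, and OLFM1 and IGFBP4 at -0.12. The 2 XBP1 probe sets correlated with each other at 0.80. GREB1 had r = 0.53 with ESR1, and IGFBP4 had r = 0.62 with PGR.

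The members differed in the tissue markers that they varied with. IGFBP4 correlated with the mean of the fibroblast markers at r = 0.90 and with that of the endothelial markers at 0.87. OLFM1 correlated with the superficial squamous markers at 0.65, with proliferation at 0.62 and with columnar epithelium at -0.63. The CA12 probe sets had 0.50 to 0.58 with the squamous markers and -0.68 to -0.52 with the GAPDH difference, and TFF3 had 0.55 and -0.54. XBP1 had at most 0.40 with any list, the leukocyte one.

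**Figure D4:**
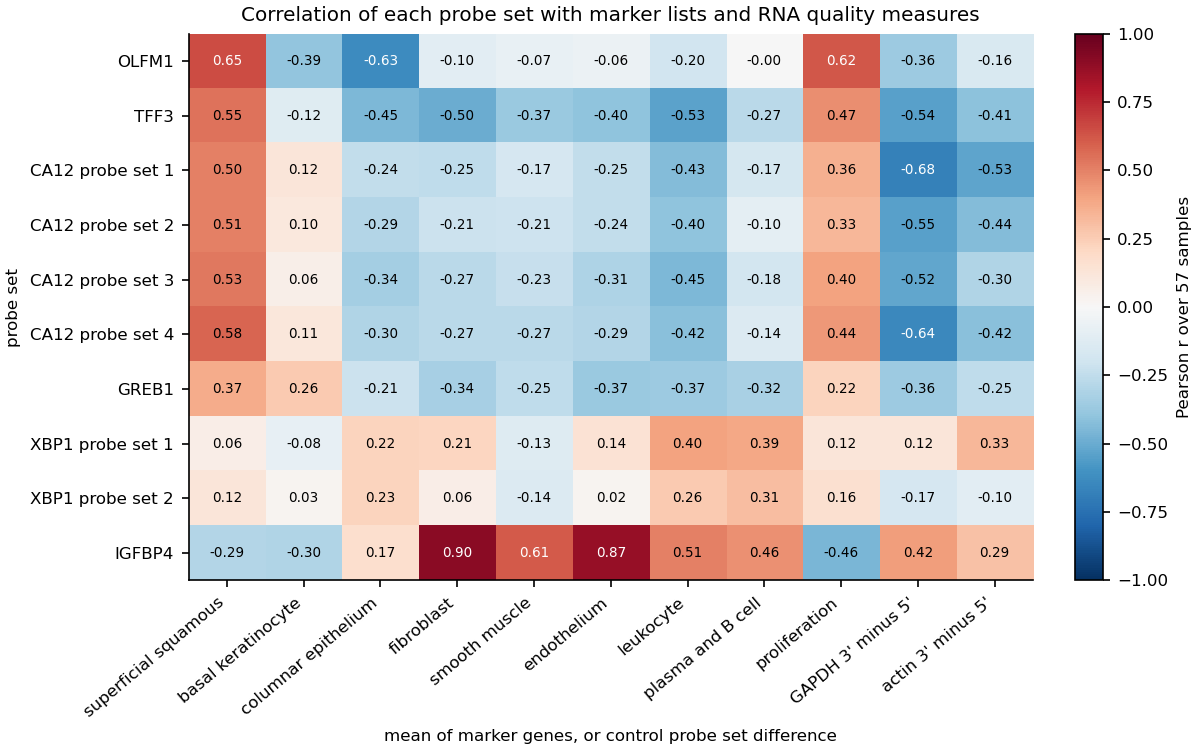
Pearson r over 57 samples between each probe set (vertical axis) and the mean log2 signal of each marker list or the 3' minus 5' difference of a control transcript (horizontal axis), with the value printed in each cell. The strongest cell is IGFBP4 with fibroblast markers at 0.90.

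Among 11198 other genes, those most like each member over these samples were named by the highest r. For OLFM1 they were ZZEF1 (r = 0.90) and AMOTL2 (0.81), and the most opposed was CLSTN1 (-0.79). For TFF3 they were GJD3 (0.86) and APOA5 (0.85), with SLC2A10 (-0.76) most opposed. IGFBP4 was most like FOXF1 (0.92) and FBN1 (0.91), which encodes the matrix protein fibrillin 1, and least like ELMO3 (-0.76). XBP1 was most like the chemokine gene CCL20 (0.69) and the cytokine gene IL19 (0.67), and least like KLK4 (-0.66). CA12 and GREB1 had no close match. The highest were LOC716943 (0.66) and BLOC1S3 (0.65) for CA12, and TEPSIN (0.63) and IVD (0.61) for GREB1. The most opposed were FAM76B (-0.68) for CA12 and TWIST1 (-0.65) for GREB1.

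Other genes described as estrogen-responsive did not move in 1 direction. Of 58 further genes listed, 40 were measured. At 2D2, 5 of them rose and 6 fell, against 17.2% and 14.1% of 11199 genes, and their median change was -0.04. The rises included FOXA1, a pioneer factor for the estrogen receptor, at 1.72 ± 0.45 (SE), the keratin gene KRT19 at 1.56 ± 0.42, LRIG1, which restrains receptor tyrosine kinases, at 0.89 ± 0.18, and the transcription factor gene GATA3 at 0.74 ± 0.24. The falls included the small heat shock protein gene HSPB8 at -1.65 ± 0.28, the prolactin receptor gene PRLR at -1.28 ± 0.35, CCN5 at -1.08 ± 0.37 and the thrombospondin gene THBS1 at -1.05 ± 0.23. Columnar markers rose in the same samples, and their part in the KRT19 rise was not tested.

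At 1D4, 5 of the 40 rose and 3 fell, against 11.7% and 14.1% of all genes. LRIG1 (0.75 ± 0.19, SE), KRT19 (1.53 ± 0.44), the kinase gene JAK2 (1.46 ± 0.45) and FOXA1 (1.29 ± 0.48) rose, and HSPB8 (-1.36 ± 0.30), the immediate early gene FOS (-1.11 ± 0.37) and the growth factor gene AREG (-1.08 ± 0.37) fell. After LNG none of the 40 passed. The smallest p belonged to RAPGEFL1 (-0.89 ± 0.26), SEMA3B (0.70 ± 0.21) and the cyclin gene CCND1 (-0.62 ± 0.20) at the 5th time, and to CCND1 (-0.72 ± 0.20), HSPB8 (-1.22 ± 0.35) and JAK2 (1.80 ± 0.53) at the 7th.

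In the cycle, the chemokine gene CXCL12, which stromal cells make, was the 1 gene of the 40 that passed: it was lower in the late follicular than in the late luteal phase by a log2 difference of -1.60 ± 0.26 (SE; adjusted p = 0.0157 in limma), where 2.88% of all genes were called lower. Against all other phases it had -1.14 ± 0.24 and did not pass, and nor did RERG (-1.83 ± 0.70) or LRIG1 (-0.68 ± 0.28). Against the early follicular phase the smallest p were those of CXCL12 (-1.27 ± 0.26), RAPGEFL1 (0.45 ± 0.23) and JAK2 (-1.33 ± 0.79). Against the early luteal phase they were those of the co-chaperone gene FKBP4 (0.66 ± 0.28), TPBG (-0.48 ± 0.21) and GATA3 (-0.73 ± 0.32). None of these passed.

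Between DMPA at 2D2 and LNG at the 5th time, THBS1 (-1.28 ± 0.37, SE), CXCL12 (-1.14 ± 0.40) and SEMA3B (-0.74 ± 0.27) had the smallest p of the 40, with adjusted p from 0.506 to 0.518 in limma. With the times averaged they were KRT19 (1.42 ± 0.55), FOXA1 (1.24 ± 0.60) and THBS1 (-0.60 ± 0.31), none of which passed.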

How the data were processed

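Each array has 1 column of log2 signals, which were used as the authors deposited them. The arrays' medians lie between 6.07 and 6.25. The submitters' processing notes name affy and Partek without versions; background correction, normalization and summarization are not given in the sources used here. Genes were named from the platform annotation, which can be old.

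Of 52865 probe sets, 158 controls and those under the 40th percentile of mean signal (log2 5.53) were removed, leaving 31624 (11199 named genes, by brightest probe set). The duplicate array was averaged with its partner. The tests used limma 3.58.1 and statmod 1.5.0 (R 4.3.3), and each animal was a fixed block (28 untreated samples for the phases, all 57 for treatments), and p values were adjusted by Benjamini-Hochberg over all kept probe sets. The animal, given in the labels, is the pairing; replicate numbers do not follow animals. No batch is recorded, and the p values rest on the variation left after the animal and group terms. Single genes were named by rule: members, PGR and ESR1, in the list of 58 up to 4 called genes with the smallest p per direction (otherwise the 3 smallest), and the 2 highest and 1 lowest correlated genes. Probe sets of a gene are numbered from bright to dim. The fits were tested on simulated data. Members and lists were chosen with earlier results of these data known.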

Additional observations from a re-analysis of the deposited data

Results flagged for a closer look

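In 96 groups of 4 to 10 samples, 5 had a sample far from the rest by Dixon's criterion, which chance gives in about 1 of 20 groups. GREB1 read 10.68 in late luteal replicate 7 (animal BB0540), where the next highest was 9.73. IGFBP4 read 8.29 in late luteal replicate 3 (BB4870), where the next lowest was 10.88. ESR1 read 9.57 in late luteal replicate 8 (BB521), where the next lowest was 10.62. The second dimmest CA12 probe set read 8.69 in the 1D4 sample of BB521 (dose 1.5), where the next lowest was 9.88. PGR read 7.50 in the 5th-time sample of BB4870 (LNG High, marked A-), where the next lowest was 9.20.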

How the results depend on the processing

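Of 100 member results (10 probe sets in 10 comparisons), 7 were called. In 6 of the 10 comparisons, all of them with 0 called members, no alternative called one. The others moved as follows. Late follicular against late luteal gave 2 called members with a random animal block. The DMPA minus LNG difference with times averaged gave 1 without the animal block, the paired term, when 7.74% of all probe sets passed. DMPA 1D4 gave 1 with a 60th percentile filter, which drops TFF3, 1 with the GAPDH covariate, and 1 to 2 when each animal was left out. DMPA 2D2 gave 0 with the GAPDH covariate and 3 to 7 when each animal was left out. It gave 8, the 3 more being GREB1, a CA12 and an XBP1 probe set, with arrays centred on the median of kept probe sets, chosen after seeing the data. That centring turns the 5055 higher and 3819 lower probe sets of 2D2 into 3811 and 4758, against 4837 and 3470 when centred on the median of all probe sets other than controls. The GAPDH covariate turned 2 called falls, of the brightest CA12 probe sets, to 0.0118 and 0.0333. At 2D2, 7 members, GREB1 among them, passed without the animal block (30.9% of all probe sets) and 7 with a random one (36.3%), against 28.1% of all. The count over all probe sets at 2D2 was 5523 without BB981, against 8874, and at 1D4 it was 3091 to 4164 without PHQ1, BB0499, BB981 or BB0540, against 7334. Late follicular against late luteal called 1032 probe sets, 6 with the GAPDH covariate, 4365 with the random block and 0 without BB269, BB770 or PHQ1. At the LNG 5th time, 2937 probe sets passed without the arrays marked A-, 748 with the stricter filter, 755 with the random block, 1808 with phases apart and 3186 without BB4870, against 0. At the 7th time the count was 2, against 1950 with phases apart, 560 with the stricter filter, 532 with the random block, 224 with arrays centred, 69 without the arrays marked A-, 1094 without BB269 and 811 without PPi2. None were members. The 4 late follicular animals, and probe sets near the dim limit such as TFF3, bound the precision.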
